A study of Mus musculus with 12 samples.

Results

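Chemokines are small secreted proteins that steer leukocyte migration, and they act through G protein-coupled receptors on the cells they attract. They are grouped by the spacing of their first cysteines into CC, CXC, CX3C and XC ligands, and the atypical receptors bind chemokines without G protein signaling and clear or transport them. In the injured liver, resident macrophages, endothelial cells, stellate cells and bile duct cells are known sources of chemokines, and monocytes and lymphocytes carry many of the receptors.

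The chemokine system was examined as 48 protein coding genes out of the 16971 genes of the deposited table, 31 ligands and 17 receptors, chosen by name alone (Ccl, Cxcl, Cx3cl and Xcl ligands, Ccr, Cxcr and Cx3cr receptors, and Ackr atypical receptors, each followed by a number). GFP(+) cells had been sorted by FACS from the nonparenchymal fraction of livers of Prom1CreERT2-nLacZ/+;Rosa26Lsl-GFP/+ mice, labelled as C57BL/6 (the methods give C57BL/6N for the Prom1 allele and C57BL/6J for the Rosa26 allele), and their mRNA was sequenced. In these mice the *Prom1* promoter drives a tamoxifen-dependent Cre, so that cells in which it was active at injection, and their descendants, carry GFP permanently. All mice, controls included, carried both alleles and received tamoxifen at 6 weeks of age, 7 days before the d0 time point. The groups were day 0 (d0), and day 3 (d3) and day 14 (d14) after bile duct ligation (BDL), which blocks bile flow and causes cholestatic injury. The d0 group was labelled as sham, and the paper describes its cells as isolated before BDL. Mice of both sexes entered each group in unequal numbers, so sex was not balanced across the groups.

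The values are upper quartile normalized counts, given by the authors as 1 mean per group. The means rest on 3 libraries at d0, 3 at d3 and 4 of the 6 labelled libraries at d14. Apart from the highest value over all libraries, no value of a single library was analysed here, depth per library is unknown, and no test, p-value or directly measured SD is given. In place of these, the geometric mean and the highest library that the authors list over all 10 libraries were used to estimate the spread within groups, and each log2 ratio is followed by the standard error (SE) that this spread gives. A member is said to have risen or fallen where its means differed by more than 2-fold and by more than 3 SE. The same columns also limit how low or high any library of a group can have been, and these limits are given as ranges. A library at an extreme of its range is possible, not observed. Of the 48 members, 41 reached a sum of 10 normalized counts over the 10 libraries (26 ligands and 15 receptors), and 25 reached a mean of 10 in at least 1 group (18 ligands and 7 receptors).

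The sorted cells were checked against markers of the cell types a nonparenchymal sort can hold. Per kilobase of exon, the median level of 8 macrophage genes was 118 at d0, 167 at d3 and 113 at d14, whereas that of 13 cholangiocyte genes was 2.15, 0.796 and 1.52. Bile duct keratin *Krt19* had means of 21.5, 12.7 and 14.3 normalized counts, the macrophage receptor gene *Csf1r* had 1360, 2140 and 1230, and *Prom1* itself had 6.66, 0.956 and 1.76. The expression values thus go against a population made of bile duct progenitors alone, and the cells are called GFP(+) cells here. In bulk RNA, a lower level from fewer cells of a type cannot be told apart from a lower level in each cell.

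The marker lists themselves moved. The summed means of 7 Kupffer cell (resident liver macrophage) genes were 10100, 22300 and 1350 normalized counts across the 3 groups, and all 7 were more than 2-fold lower at d14 than at d0. For 8 genes of recruited monocytes and macrophages the sums were 808, 1000 and 3990, and 5 of 8 were more than 2-fold higher at d14 and 2 lower. The 2 lower genes were *Ly6c2* and *Plac8* (log2 ratios -1.71 ± 1.3 and -2.28 ± 0.32). *Spp1*, which is also in the cholangiocyte list, made up 459, 175 and 792 of these sums. The 9 T and NK cell genes summed to 167, 41.5 and 12.2, the 5 B cell genes to 190, 51.9 and 21.5, and the 9 stellate cell or fibroblast genes to 747, 22.7 and 80.2. All genes of these last 3 lists were more than 2-fold lower than d0 on both days. Neutrophil genes summed to 633, 298 and 219, 6 dendritic cell genes to 28.4, 9.73 and 22.5, 8 sinusoidal endothelial genes to 1180, 637 and 1540, and 8 hepatocyte genes to 3370, 922 and 376. In the 11 lists, the genes at the floor of detection were at most 1 per list and group. The part of these shifts in the chemokine values below was not tested.

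The summed means of all 48 members were higher after BDL (1610, 3270 and 2750 normalized counts at d0, d3 and d14), while most individual genes were lower. The summed means of the 31 ligands were 1330 normalized counts at d0, 3040 at d3 and 1950 at d14. *Ccl6* alone made up 19.5%, 56.3% and 35.1% of the signal of all 48 members, and *Ccl9* a further 3.01%, 10.1% and 13.8%. The summed means of the 17 receptors were 279, 231 and 810, so they were lower than d0 at d3 and higher at d14. Of the 41 members kept, 21 had their highest group mean at d0, 5 at d3 and 15 at d14. The median log2 ratio of the 41 members was -0.66 at d3 against d0 and -0.75 at d14 against d0, beside -0.02 and -0.04 for all 12891 genes kept.

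**Figure D1:**
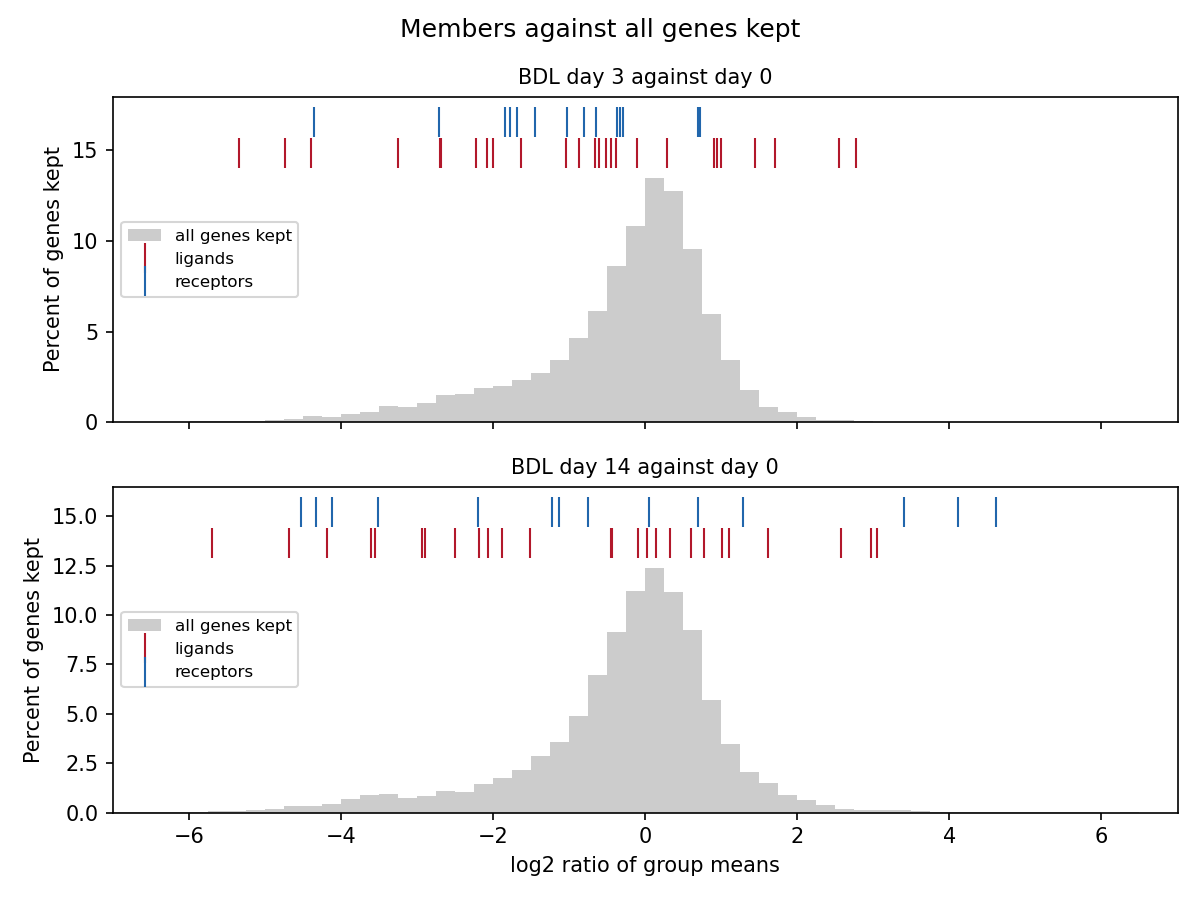
Histogram of the log2 ratios of group means of the 12891 genes kept (y axis, percent of genes), with 26 ligands (red ticks) and 14 receptors (blue ticks) marked above it, for BDL day 3 (top) and BDL day 14 (bottom) against day 0. At BDL day 14 the ligands range from -5.70 to 3.05, and 3 receptors at BDL day 14 (Ccr2, Ccr1 and Cx3cr1) sit above a log2 ratio of 3.

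At d3 against d0, 4 members were more than 2-fold higher (7.3% of all genes kept) and 18 more than 2-fold lower (20.7% of all genes). With the 3 SE criterion, 2 rose (3.28% of all genes) and 8 fell (6.35% of all genes). Those that rose were the CC ligands *Ccl6* and *Ccl9*, and those that fell were *Ccl8*, *Ccl19*, *Ccl21a*, *Cxcl1*, *Cxcl2*, *Cxcl9*, *Cxcl12* and the atypical receptor *Ackr1*. None of the 15 receptors kept was more than 2-fold higher on this day.

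At d14 against d0, 10 members were more than 2-fold higher (9.74% of all genes) and 20 more than 2-fold lower (19.6% of all genes). With the 3 SE criterion, 7 rose (4.81% of all genes), namely *Ccl6*, *Ccl9*, *Cxcl14*, *Ccr1*, *Ccr2*, *Cx3cr1* and *Cxcr4*, and 12 fell (8.85% of all genes), namely *Ccl5*, *Ccl19*, *Cxcl1*, *Cxcl2*, *Cxcl9*, *Cxcl12*, *Cxcl13*, *Xcl1*, *Ccr3*, *Ccr7*, *Cxcr5* and *Cxcr6*. Between the 2 BDL days, 12 members were more than 2-fold higher at d14 (12.7% of all genes) and 9 lower (9.88% of all genes). Of these, *Ccl3*, *Ccl8*, *Ccr1*, *Ccr2* and *Cx3cr1* rose past 3 SE (4.32% of all genes), and *Ccr3* and *Cxcl13* fell (4.1% of all genes). Both BDL days are set against the same d0 libraries.

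**Figure D2:**
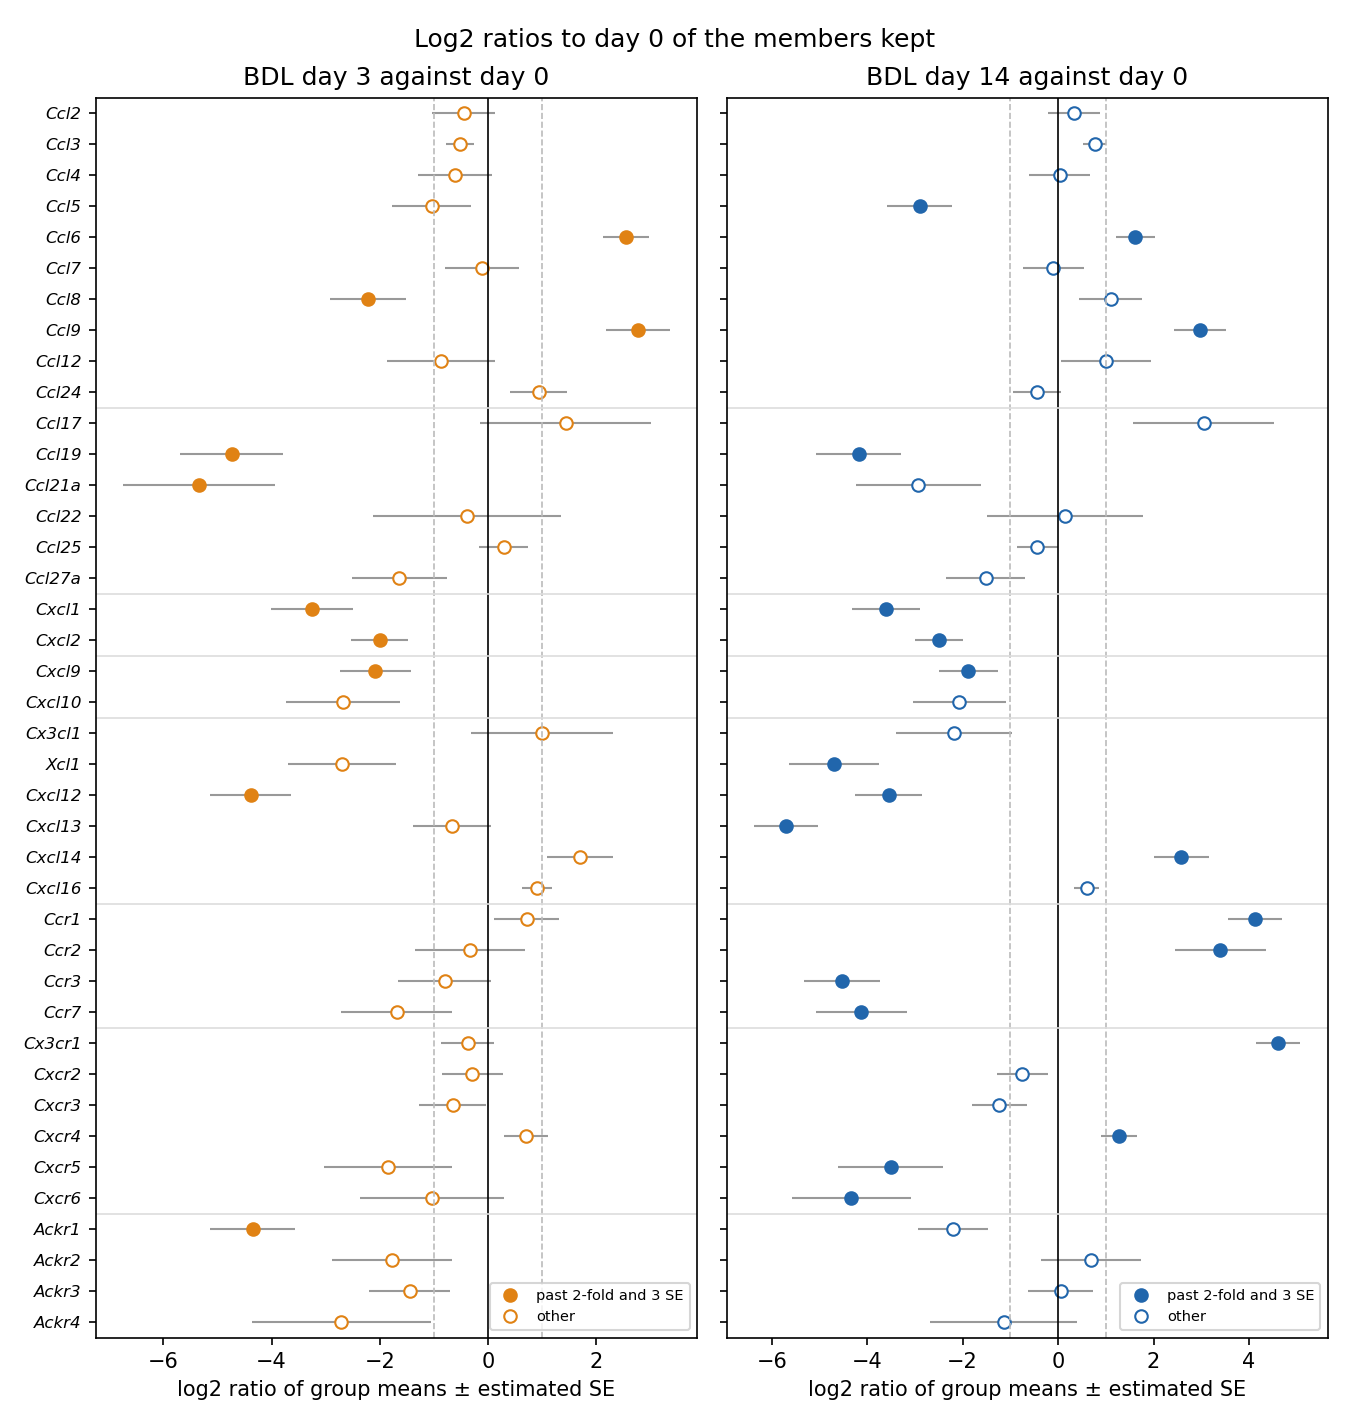
Log2 ratios of group means (x axis) of 40 members kept, in blocks by role, for BDL day 3 (left, orange) and BDL day 14 (right, blue) against day 0. Horizontal bars are the estimated SE, dashed lines mark a 2-fold change and filled points are past 2-fold and 3 SE (10 members at BDL day 3 and 19 at BDL day 14).

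Beginning with the ligands, the inflammatory CC ligands included *Ccl6*, which had the highest mean of the 48 members in each group and ranked 2, 1 and 1 among them per kilobase of exon at d0, d3 and d14. *Ccl6* (chr11:83587882-83593087, minus strand), a CC ligand of mouse myeloid cells that acts on CCR1, had group means of 314, 1840 and 968 normalized counts at d0, d3 and d14. Its log2 ratio to d0 (± SE) was 2.55 ± 0.43 at d3 and 1.62 ± 0.40 at d14. Every d3 library lay between 1540 and 1980 and no d0 library can have exceeded 581, so these groups did not overlap. The d14 range, 326 to 1900, can overlap both.

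*Ccl9* (chr11:83572919-83578636, minus strand), the neighbouring gene and another CCR1 ligand, had means of 48.5, 330 and 381. Its log2 ratios to d0 were 2.77 ± 0.59 and 2.97 ± 0.55, and its level at d14 differed from that at d3 by only 0.21 ± 0.55. Both BDL groups were high relative to d0, although the possible ranges of the libraries (9.85 to 104 at d0, 67.0 to 707 at d3) overlap.

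The other genes of the same stretch of chromosome 11 did not follow. *Ccl5* (chr11:83525778-83530518, minus strand), which recruits T cells and is made by T and NK cells, had means of 29.0, 14.1 and 3.89, with log2 ratios of -1.04 ± 0.73 and -2.90 ± 0.68. *Ccl3* (chr11:83647844-83649355, minus strand), a ligand of CCR1, had means of 33.6, 23.5 and 57.2, and it rose between the BDL days by 1.28 ± 0.24 on the log2 scale, whereas its ratios to d0 were -0.52 ± 0.26 and 0.77 ± 0.24. *Ccl4* (chr11:83662584-83664683, plus strand), a close relative of *Ccl3*, had means of 14.7, 9.66 and 15.0, a difference of 0.03 ± 0.64 between d14 and d0. Thus, within 139 kb, *Ccl6* and *Ccl9* were higher than d0 on both days, *Ccl5* was lower, and *Ccl4* was within its error.

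The monocyte attractants of the upstream chromosome 11 group, which act mainly through CCR2, were modest. *Ccl2* (chr11:82035571-82037453, plus strand) had means of 13.7, 10.0 and 17.2, with log2 ratios of -0.45 ± 0.59 and 0.33 ± 0.55, and *Ccl7* had means of 6.69, 6.19 and 6.26. *Ccl12* had means of 3.86, 2.11 and 7.78, but 54.3% of its d14 sum came from 1 library, and without it the log2 ratio to d0 went from 1.01 ± 0.94 to 0.30. *Ccl8* (chr11:82115185-82116799, plus strand), a ligand that mouse macrophages make and that acts on CCR8 in mice, had means of 11.5, 2.46 and 24.6. It fell by 2.22 ± 0.70 on the log2 scale at d3 and rose by 3.32 ± 0.66 from there to d14. *Ccl24* (chr5:135569937-135573049, minus strand), an eosinophil attractant acting on CCR3, had means of 128, 245 and 93.9, and every d3 library lay between 196 and 268. Its ratios, 0.94 ± 0.53, -0.45 ± 0.50 and -1.38 ± 0.50 between the BDL days, did not pass 3 SE.

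**Figure D3:**
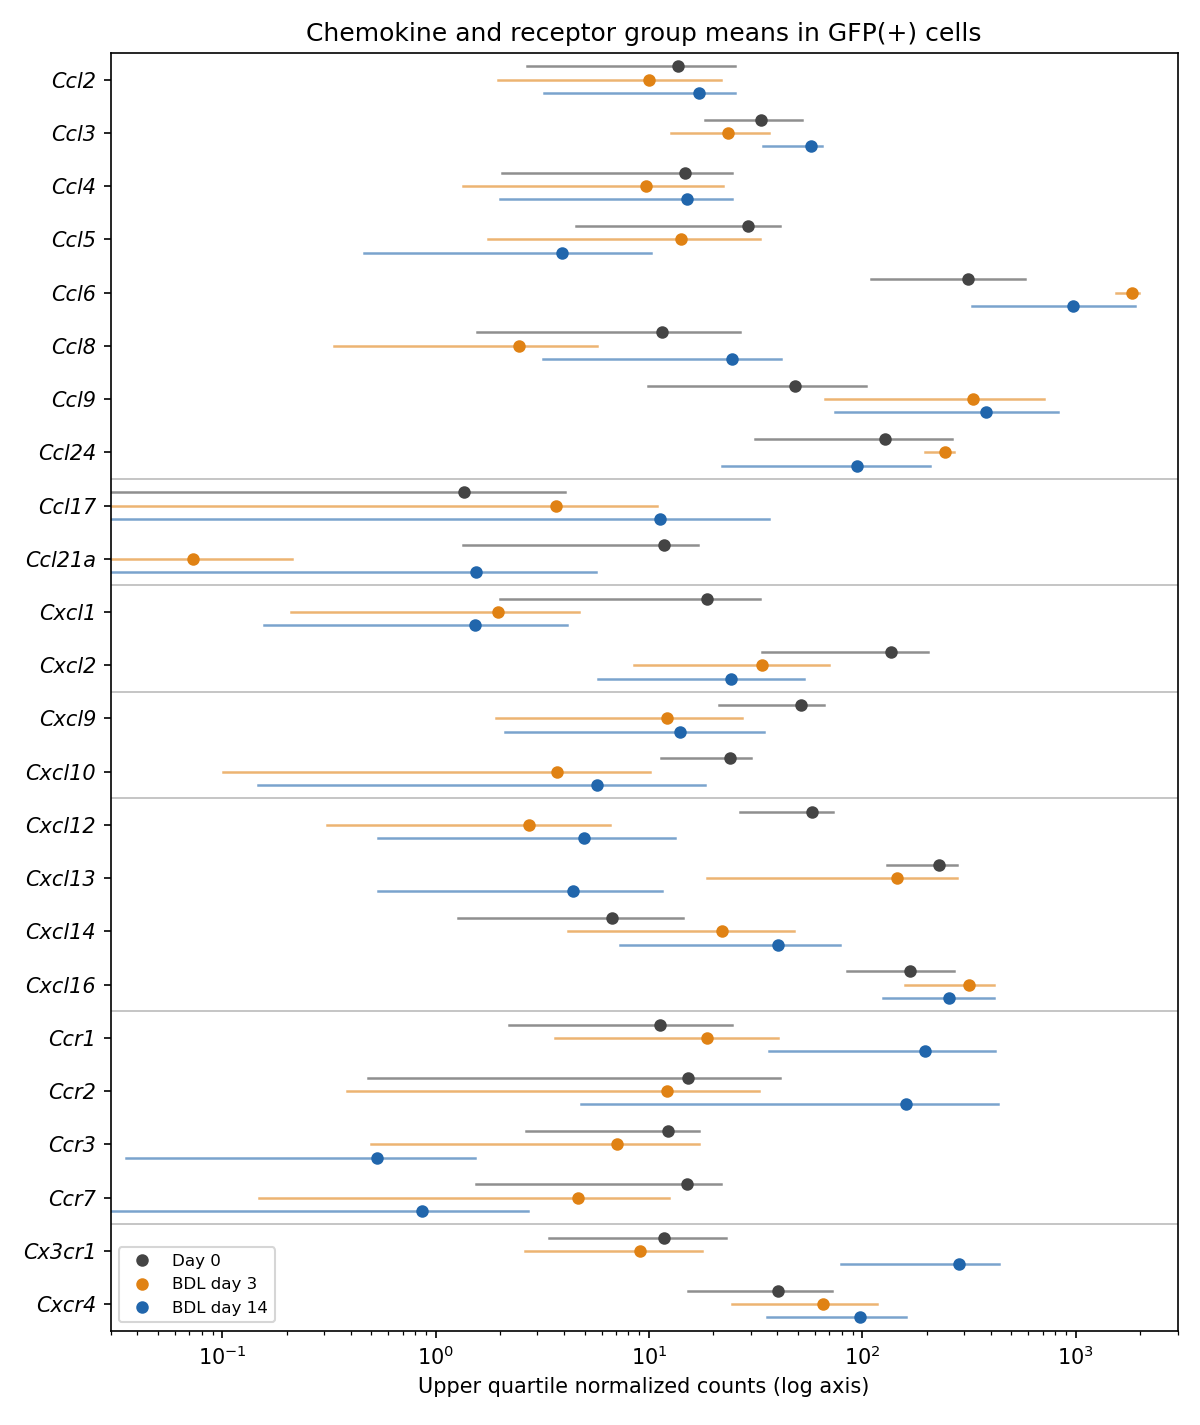
Group means (points) of 24 members with a mean of at least 10, in upper quartile normalized counts on a log axis, with grey for day 0, orange for BDL day 3 and blue for BDL day 14. Lines span the values that a library of the group can have had given the deposited means, highest library and geometric mean, drawn from 0.03 upward, and do not show an SD. Grey lines across the plot separate the roles. Cx3cr1 at BDL day 14 and Ccl6 at BDL day 3 lie clear of their day 0 ranges.

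The homeostatic and dual-function CC ligands include those that guide lymphocytes and dendritic cells through lymphoid tissue. Of the 6 kept, 3 were more than 2-fold lower and 1 higher on each BDL day. Among all genes kept, 20.7% were lower and 7.3% higher at d3, and 19.6% lower and 9.74% higher at d14. The ligands of this class past 3 SE were *Ccl19* and *Ccl21a* at d3 and *Ccl19* at d14. *Ccl19* and *Ccl21a* are the ligands of CCR7. *Ccl19* had means of 7.78, 0.0729 and 0.429. Its d3 mean equalled the lowest mean of any gene in that group and was read as the floor, so *Ccl19* was at least 26.7-fold lower there, and 18.1-fold lower at d14. Every d0 library of *Ccl19* was at least 4.92 and no library after BDL exceeded 1.30, so d0 did not overlap either BDL group.

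*Ccl21a* (chr4:42772860-42773993, minus strand) had means of 11.8, 0.0729 and 1.55. It was at least 40.5-fold lower at d3, with no library of that group above 0.212 and none at d0 below 1.35, and its log2 ratio at d14 was -2.93 ± 1.31. Mouse Ccl21 genes are nearly identical copies, and how reads that match several copies were counted is not given in the sources used here, so the split between *Ccl21a* and *Ccl21b* (means of 0.128, 0.0729 and 0.382) is uncertain. The floor is 4 times the lowest mean of a group, on the assumption that this lowest mean stands for about 1 read.

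*Ccl17* (chr8:94810453-94812036, plus strand), a ligand of CCR4, had means of 1.36, 3.68 and 11.3. At d14, 1 library held 80.8% of the group's sum, and without it the log2 ratio to d0 changed from 3.05 ± 1.48 to 1.09, and the ratio to d3 from 1.62 to -0.34. Its neighbour *Ccl22*, also a CCR4 ligand, had means of 2.42, 1.86 and 2.66 with 83.2% of the d14 sum in 1 library, and without it the log2 ratio changed from 0.14 to -2.02 against d0 and from 0.52 to -1.64 against d3. *Ccl25* had means of 1.87, 2.29 and 1.38, and *Ccl27a* had 2.61, 0.838 and 0.910. None of these 4 genes passed 3 SE in any comparison.

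The neutrophil attractants *Cxcl1* and *Cxcl2*, which act on CXCR2, fell on both days. *Cxcl2* (chr5:90903871-90905938, plus strand) had means of 136, 34.0 and 24.1, with log2 ratios of -2.0 ± 0.53 and -2.50 ± 0.50. Its highest library, of 201, was a d0 library that held 49.3% of the d0 sum, and without it the ratios were -1.61 and -2.10. *Cxcl1* (chr5:90891241-90893115, plus strand) had means of 18.7, 1.96 and 1.53, with log2 ratios of -3.25 ± 0.76 and -3.61 ± 0.71, or -2.55 and -2.90 without the highest d0 library. In both genes d0 was the high group, and the 2 BDL groups differed from each other by no more than their SE.

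*Cxcl9* and *Cxcl10* attract T and NK cells through CXCR3 and are known targets of interferon. *Cxcl9* (chr5:92321347-92328079, minus strand) had means of 51.3, 12.1 and 13.9, with log2 ratios of -2.08 ± 0.66 and -1.88 ± 0.61. *Cxcl10* (chr5:92346638-92348889, minus strand) had means of 23.9, 3.72 and 5.70 and ratios of -2.68 ± 1.05 and -2.07 ± 0.98, which did not pass 3 SE. Nevertheless, each *Cxcl10* library was at least 11.4 at d0 and at most 10.1 at d3, so these 2 groups did not overlap, whereas d14 libraries could reach 18.3.

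The promoters of *Cxcl1*, *Cxcl2* and *Cxcl10* are shown as examples. These genes were more than 2-fold lower than d0 on both days and hold matches to motifs of inflammatory transcription factors. That of *Cxcl3* is shown because it is a close relative on the same chromosome with a match. Each sequence is the 250 bases upstream of a RefSeq start site in GRCm38.p6, 5′ to 3′ on the strand of the gene, and capitals mark every match, on either strand, to the NF-kB consensus, the interferon-stimulated response element (GAAA, any 2 bases, GAAA), the AP-1 motif TGANTCA or the PU.1 motif GAGGAAGT. The regions are chr5:90890995-90891244 for *Cxcl1*, chr5:90903649-90903898 for *Cxcl2*, chr5:90785851-90786100 for *Cxcl3* and, on the minus strand, chr5:92348890-92349139 for *Cxcl10*. *Cxcl3*, another CXCR2 ligand, had means of 0.732, 0.273 and 0.25, too low for a comparison.
Cxcl1: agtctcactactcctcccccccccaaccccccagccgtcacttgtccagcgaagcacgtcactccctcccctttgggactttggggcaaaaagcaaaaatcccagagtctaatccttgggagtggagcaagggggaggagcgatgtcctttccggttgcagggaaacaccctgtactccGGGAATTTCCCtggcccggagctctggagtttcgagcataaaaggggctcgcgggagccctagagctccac
Cxcl2: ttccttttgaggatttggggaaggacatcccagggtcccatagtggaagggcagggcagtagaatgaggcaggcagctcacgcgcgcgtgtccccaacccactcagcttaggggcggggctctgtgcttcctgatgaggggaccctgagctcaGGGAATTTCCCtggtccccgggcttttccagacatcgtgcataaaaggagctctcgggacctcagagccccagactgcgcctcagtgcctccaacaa
Cxcl3: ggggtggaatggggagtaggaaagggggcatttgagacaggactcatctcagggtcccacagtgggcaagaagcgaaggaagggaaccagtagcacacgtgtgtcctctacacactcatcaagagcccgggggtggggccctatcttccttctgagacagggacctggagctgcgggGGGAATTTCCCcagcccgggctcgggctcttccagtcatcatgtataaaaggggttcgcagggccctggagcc
Cxcl10: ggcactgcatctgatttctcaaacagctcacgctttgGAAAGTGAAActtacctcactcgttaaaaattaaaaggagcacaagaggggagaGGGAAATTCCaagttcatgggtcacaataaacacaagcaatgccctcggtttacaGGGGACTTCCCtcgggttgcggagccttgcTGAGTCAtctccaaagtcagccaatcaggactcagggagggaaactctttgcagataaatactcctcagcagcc
*Cxcl1*, *Cxcl2* and *Cxcl3* hold the same 11 bases, GGGAATTTCCC, which begin at positions -71, -97 and -73 relative to the start site, and in each the match reads on both strands and therefore counts as overlapping sites. *Cxcl10* holds GAAAGTGAAA, GGGAAATTCC, GGGGACTTCCC and TGAGTCA, so it alone of the 4 has an interferon-stimulated response element in this window. Among 40 promoter windows available for 36 of the 48 members, 9 (22.5%) held the NF-kB consensus, against 7.25% of 32851 windows of the same length. The interferon-stimulated response element was in 3 (7.5%, against 2.98%), the AP-1 motif in 4 (10.0%, against 6.75%) and the PU.1 motif in 1 (2.5%, against 2.44%). *Ccl19* and *Ccl27a* were also more than 2-fold lower on both days, and their windows are not shown. They held the interferon-stimulated response element and the AP-1 motif, respectively. Genes that rose also held the NF-kB consensus, namely *Ccl9* and *Ccr1*, and *Cxcl9* fell without a match in its window. Matches describe the sequence only, and several windows belong to neighbouring copies of related genes.

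Among the remaining ligands, *Cxcl13* and *Cxcl12* were abundant at d0 and fell. *Cxcl13* (chr5:95956951-95961068, plus strand), the B cell attractant that acts on CXCR5, had means of 229, 145 and 4.40. Its log2 ratio was -0.66 ± 0.72 at d3 and -5.70 ± 0.67, or 52.0-fold lower, at d14. Each library was at least 130 at d0, at least 18.7 at d3 and at most 11.5 at d14, so d14 overlapped neither earlier group. Per kilobase, *Cxcl13* ranked 1 among the 48 members at d0, 3 at d3 and 21 at d14.

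*Cxcl12* (chr6:117168535-117181367, plus strand), the ligand of CXCR4 that stromal cells are known to make, had means of 57.8, 2.75 and 4.95. It was 21-fold lower at d3 (log2 ratio -4.39 ± 0.75) and 11.7-fold lower at d14 (-3.55 ± 0.70). Every d0 library was at least 26.8 and no library after BDL exceeded 13.2, so the groups did not overlap. All 9 stellate cell or fibroblast markers were more than 2-fold lower on the same days, with a median log2 ratio of -4.80 at d3 and -3.20 at d14.

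*Cxcl14* (chr13:56288643-56296551, minus strand) had means of 6.70, 21.9 and 40.1, with log2 ratios of 1.71 ± 0.61 and 2.58 ± 0.57, or 2.03 at d14 without the highest library. *Cxcl16* (chr11:70453983-70459984, minus strand), a membrane-bound ligand of CXCR6 that is shed by ADAM10, had means of 168, 315 and 255 with log2 ratios of 0.91 ± 0.28 and 0.60 ± 0.26, which did not reach 2-fold. It shares 18.3% of its exon bases with *Zmynd15* on the other strand, and whether counting used strand is not given in the sources used here. *Cx3cl1*, the ligand of CX3CR1, had means of 2.45, 4.90 and 0.541 and passed 3 SE in no comparison. *Xcl1*, a ligand made by T and NK cells, had means of 6.32, 0.970 and 0.0610, at least 25.9-fold lower at d14, but 78.1% of its d0 sum came from 1 library. Without that library its log2 ratio went from -2.70 to -1.10 at d3 and from -4.69 ± 0.94 to -3.09 at d14.

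The highest d14 ratios of the 41 members belonged to receptors. *Cx3cr1* (chr9:119901616-120069879, minus strand), the fractalkine receptor of monocytes and many macrophages, had means of 11.7, 9.06 and 285. Its log2 ratio was -0.37 ± 0.49 at d3 and 4.61 ± 0.46 at d14, which is 24.4-fold. Every d14 library lay between 79.2 and 438, above the highest possible value at d0 (23.0) and at d3 (17.8). *Cx3cr1* was the only member that rose from both earlier groups without overlap.

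*Ccr1* (chr9:123962124-123968692, minus strand), the receptor of *Ccl6*, *Ccl9* and *Ccl3*, had means of 11.3, 18.6 and 196. The log2 ratio was 0.72 ± 0.60 at d3 and 4.12 ± 0.56 at d14. Its d14 libraries were each at least 36.7 and its d0 libraries at most 24.5, so these groups did not overlap, and 1 library held 53.3% of the d14 sum. Without that library the ratio was 3.43.

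*Ccr2* (chr9:124101950-124113557, plus strand), the receptor by which inflammatory monocytes leave the bone marrow, had means of 15.3, 12.2 and 161. Its log2 ratio at d14 was 3.40 ± 0.95, but 66.9% of the d14 sum came from a library at 431, and the ratio dropped to 2.21 when that library was left out. The possible ranges of d0 (0.481 to 41.1) and d14 (4.81 to 432) overlap. *Cxcr4* (chr1:128588199-128592293, minus strand) had means of 40.1, 65.1 and 97.6, with ratios of 0.70 ± 0.41 and 1.28 ± 0.38, and it was not past 3 SE when the whole spread was placed in the 2 groups compared. At d14, genes of recruited monocytes and macrophages had a median log2 ratio of 3.70 against d0, and those of Kupffer cells -3.26. In the first of these lists, *Ly6c2* and *Plac8* went the other way (-1.71 and -2.28).

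Other leukocyte receptors fell or did not pass the criterion. *Ccr3* (chr9:124021972-124031689, plus strand), the eosinophil receptor of *Ccl24*, had means of 12.3, 7.05 and 0.531. It was 23.2-fold lower at d14 (log2 ratio -4.53 ± 0.80), and its d0 libraries, each at least 2.65, did not overlap with d14, at most 1.53. *Ccr7* (chr11:99144196-99155077, minus strand), the lymph node homing receptor, had means of 15.0, 4.64 and 0.861 and ratios of -1.69 ± 1.02 and -4.12 ± 0.95.

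Among receptors with lower means, *Cxcr5*, the B cell receptor of *Cxcl13*, had 4.84, 1.34 and 0.426, and *Cxcr6*, carried by T and NKT cells, had 8.48, 4.15 and 0.422. Their d14 log2 ratios of -3.51 ± 1.10 and -4.33 ± 1.24 passed 3 SE, but 1 d0 library held 63.8% and 64.5% of the d0 sums. Without it the ratios were -2.63 and -3.42. *Cxcr2*, the neutrophil receptor, had means of 7.34, 6.01 and 4.36, and *Cxcr3* had 7.51, 4.78 and 3.20, neither past 3 SE. For T and NK cell markers the median log2 ratio at d14 was -4.17, for B cell markers -5.03 and for neutrophil markers -1.81.

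The means of the 4 atypical receptors were each more than 2-fold lower at d3 than at d0 (20.7% of all genes) and more than 2-fold higher at d14 than at d3 (12.7% of all genes), but of these differences *Ackr1* at d3 was the only one past 3 SE. *Ackr1*, which carries chemokines across venular endothelium, had means of 5.93, 0.134 and 1.29 and was at least 20.3-fold lower at d3, past 3 SE and without overlap with d0 (at least 0.557 against at most 0.327). It shares 25.7% of its exon bases with *Cadm3* on the same strand. *Ackr2*, a scavenger of inflammatory CC ligands, had 4.22, 1.23 and 6.81, *Ackr3*, which takes up *Cxcl12*, had 2.93, 1.07 and 3.03, and *Ackr4*, which takes up *Ccl19* and Ccl21, had 2.47, 0.377 and 1.12. Quantile normalization brought the d3 log2 ratio of *Ackr2* from -1.78 to -0.85 and that of *Ackr3* from -1.45 to -0.42, so neither was then more than 2-fold lower. For *Ackr4*, 79.6% of the d0 sum came from 1 library, and without it the ratio went from -2.71 ± 1.65 to -1.0. The 8 sinusoidal endothelial markers had a median log2 ratio of -1.43 at d3 against d0 and 1.89 at d14 against d3. In this list, *Cdh5* went the other way (0.53 ± 0.71 and -1.88 ± 0.67).

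Setting receptors beside their ligands in the bulk RNA of the GFP(+) cells, the directions matched in some pairs and differed in others. Whether a receptor and its ligand came from the same cells cannot be told from these means. *Ccr1* and its ligands *Ccl6* and *Ccl9* were all higher at d14 (log2 ratios 4.12, 1.62 and 2.97), while the other CCR1 ligands kept, *Ccl3*, *Ccl5* and *Ccl7*, were at 0.77, -2.90 and -0.10. *Ccr7* was lower together with *Ccl19* (-4.12 and -4.18), as was *Cxcr5* with *Cxcl13* (-3.51 and -5.70). *Ccl21a*, the other CCR7 ligand, was at -2.93 ± 1.31, which was not past 3 SE. *Cxcr2* was at -0.75 with *Cxcl1* and *Cxcl2* at -3.61 and -2.5. *Cxcr3* was at -1.23 with *Cxcl9* and *Cxcl10* at -1.88 and -2.07. Neither of these 2 receptors was past 3 SE. In contrast, *Cxcr4* was higher with *Cxcl12* lower (1.28 and -3.55), and *Cxcr6* was lower with *Cxcl16* at 0.60 (-4.33). *Cx3cr1* was higher (4.61) with *Cx3cl1* at -2.18 ± 1.22, which was not past 3 SE. *Ccr2* was higher (3.40) while its ligands *Ccl2*, *Ccl7* and *Ccl12* were at 0.33, -0.10 and 1.01.

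Neighbouring receptor genes moved in opposite directions. *Ccr9*, *Cxcr6*, *Ccr1*, *Ccr3* and *Ccr2* follow each other in a receptor block on chromosome 9, where *Cxcr6*, *Ccr1*, *Ccr3* and *Ccr2* lie 128, 283.7, 343.5 and 423.5 kb from the start of the block and *Ccr9* was not kept. In this order, the d14 log2 ratios of the 4 genes kept were -4.33, 4.12, -4.53 and 3.40, so that higher and lower genes alternate. At d3 the same 4 ratios lay between -1.03 and 0.72. Genes of the block that are no chemokine receptors, *Lztfl1* and *Fyco1*, were at 0.40 and -0.89 at d14. In all, 29 members lie in 7 clusters with gaps of under 500 kb.

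**Figure D4:**
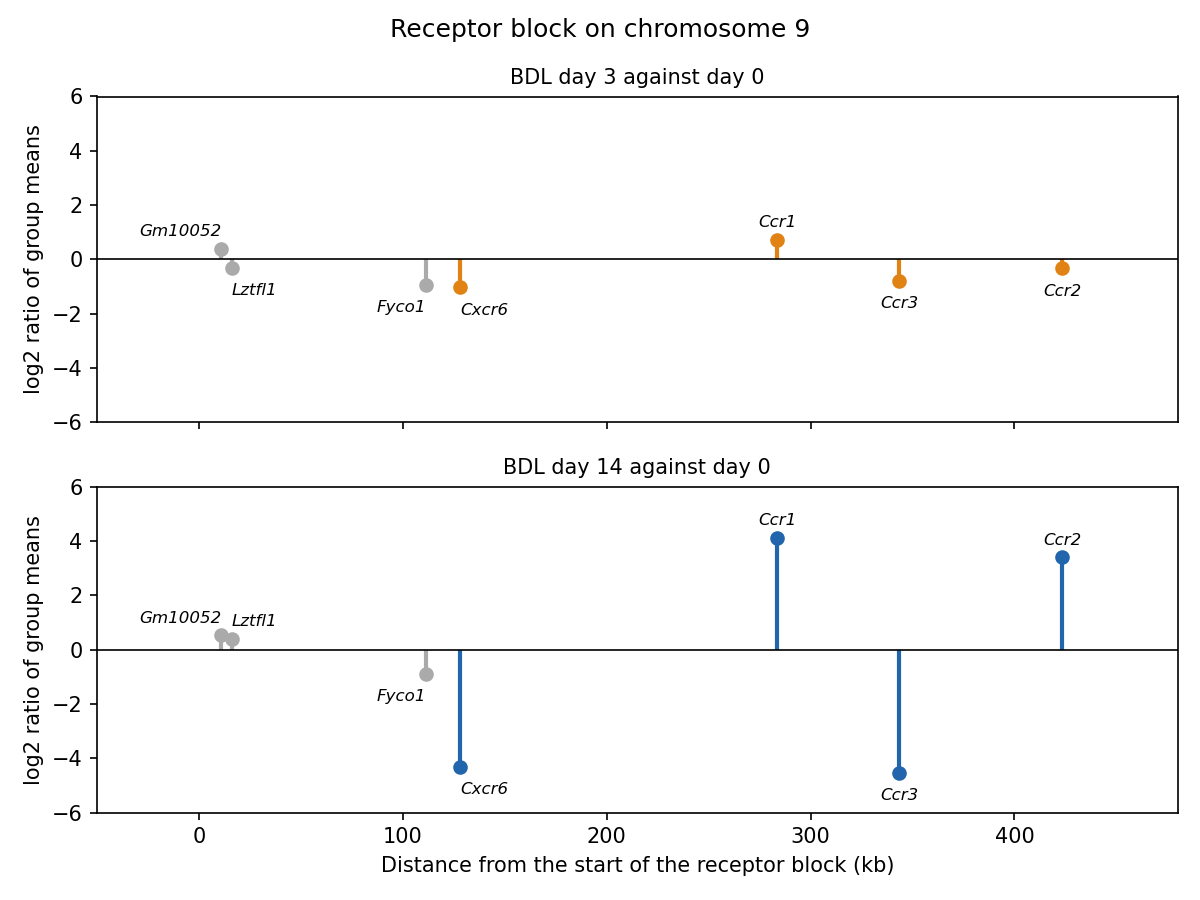
Log2 ratio of group means (y axis) against distance from the start of the receptor block on chromosome 9 in kb (x axis), for BDL day 3 (top) and BDL day 14 (bottom) against day 0. Colored stems are chemokine receptors and grey stems other genes kept. At BDL day 14, Ccr1 (4.12) and Ccr2 (3.40) point up, and Cxcr6 and Ccr3 point down.

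Genes around the chemokine system were read from 4 lists and called at more than 2-fold, where 7.3% of all genes were higher and 20.7% lower at d3, and 9.74% were higher and 19.6% lower at d14. Of 11 kept relatives outside the naming rule, 2 were higher and 2 lower at d3, and 1 was higher and 3 lower at d14. The platelet and macrophage chemokine *Pf4* had means of 37.2, 82.7 and 221 (log2 ratio 2.57 ± 0.44 at d14), the formyl peptide receptor gene *Fpr1* had 160, 101 and 18 (-3.15 ± 0.52), and the chemerin gene *Rarres2* had 33.1, 6.59 and 5.64 (-2.33 ± 0.50 at d3).

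Of 26 signal transduction genes downstream of the receptors, 0 were higher and 2 lower at d3. At d14, 3 were higher and 3 lower. Among all genes, 20.7% were lower at d3 and 19.6% at d14. These shares were smaller among genes with an overall mean of at least 10, and most genes of the list had such means. A smaller share of lower genes is therefore not read as a result about the list. The median log2 ratio of the 26 genes was 0.21 on both days. The receptor kinase gene *Grk3* had the lowest ratio at d14 (-1.66 ± 0.54, means of 24.9, 14.1 and 7.90). Of 17 genes for shedding, cleavage and matrix presentation, 1 was higher and 3 lower at d3, and 5 were higher and 4 lower at d14, beside 7.3% and 20.7% of all genes at d3 and 9.74% and 19.6% at d14. The macrophage elastase gene *Mmp12*, whose product cleaves chemokines, had means of 6.62, 264 and 69.7 (5.32 ± 1.06 and 3.40 ± 0.99). *Mmp2* had means of 26.5, 0.676 and 6.26 (-5.29 ± 0.97 at d3), and the heparan sulfate proteoglycan gene *Sdc2* had 20, 14.0 and 1.60 (-3.64 ± 0.73 at d14).

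Of 12 genes of NF-kB and of cytokines that induce chemokines, 0 were higher on either day, 1 was lower at d3 (20.7% of all genes) and 5 at d14 (19.6% of all genes). The NF-kB target *Tnfaip3* had means of 57.9, 19.5 and 20.8 and the lowest ratio of this list at d3 (-1.57 ± 0.63). The list's median log2 ratio was -0.19 at d3 and -0.87 at d14.

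Strict separation of libraries was rare. From the means and the highest library alone, 1 member was higher (*Ccl6*, 0.101% of all genes) and 3 lower (*Ccl19*, *Ccl21a* and *Cxcl12*, 1.54%) without possible overlap at d3 against d0, and 0 were higher (0.0853%) and 4 lower (*Ccl19*, *Ccr3*, *Cxcl12* and *Cxcl13*, 1.33%) at d14. With the geometric mean used as well, which gave the ranges quoted above, 1 was higher (1.8%) and 5 lower (2.93%) at d3, and 2 were higher (*Ccr1* and *Cx3cr1*, 1.32%) and 5 lower (3.2%) at d14. Between the BDL days, no member was separated in either direction by the means and the highest library alone (0.0931% of all genes higher and 0.372% lower), and with the geometric mean *Cx3cr1* was higher (0.683%) and *Cxcl13* lower (1.69%).

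The 7 members with a sum under 10 were *Ccl11*, *Ccl21b*, *Cxcl3*, *Cxcl5*, *Cxcl17*, *Ccr6* and *Ccr9*. Their group means were at most 1.79 (*Ccr9* at d0), and no comparison was made of them. Exon bases were shared with another gene by 10 of the 48 members, and apart from *Cxcl16*, *Ackr1*, *Xcl1* and *Ccr9* the share was under 10.0% of the exon length.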

How the data were processed

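mRNA of FACS-sorted GFP(+) cells was sequenced from 12 labelled libraries (3 at d0, 3 at d3 and 6 at d14). The authors used Partek Flow to trim reads, to align them against mm10 by STAR (version 2.6.1d in the submitters' processing notes) and to count them on GENCODE M18 genes, and scaled the counts by the upper quartile. The deposited signal values are the authors' least-squares group means of these normalized counts, and their total, highest library, geometric mean and arithmetic mean over 10 libraries, rounded to 3 digits. Weighting the group means by 3, 3 and 4 libraries returned the overall mean within 0.469% for 99% of genes. Columns of the authors' own comparisons (p-values, FDR, ratios, fold changes and confidence limits) were not used. It has 0 columns of single libraries, so depth is unknown, no counting error can be given, and no test was run.

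Genes with a sum of at least 10 over the libraries were kept (12891 of 16971). A log2 ratio compares group means, with means under 4 times the lowest mean of their group (0.512, 0.292 and 0.244 normalized counts) raised to that floor. The excess of the weighted mean of log group means over the log geometric mean gives the pooled variance within groups if values are log-normal and spread alike in all groups. The SE follows from it with 7 degrees of freedom, and it is understated where group spreads differ, or where rounding of the deposited values exceeds the spread. Ranges of possible libraries follow from the means, the highest library and the geometric mean. The highest library was assigned to a group only if the sums of the others were too small for it (28 of 48 members). The SE, the ranges and the placing of the highest library were tested on simulated data with the same spread in all groups. That simulation cannot show how the SE behaves where spreads differ. The paper describes the d14 replicates as more variable than those of d0.

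The members and all gene lists were chosen with earlier results of these data known. Members with a mean of at least 10 in any group are described in full, the others kept by means, and genes of the lists where their highest mean is at least 10 and their ratio is an extreme of the list. The values of 1 member, which the counts and sums include, are not reported here. Genes that overlap or neighbour a member were named after their values were seen. The 3 SE criterion and the use of the geometric mean were added after seeing the data. Positions are of GRCm38 and equal those of GENCODE M21 for 48 of 48 members. Exon lengths are from GENCODE M21, and promoter sequences from RefSeq on GRCm38.p6, where 36 of 48 members had a window. Calculations used Python 3.11.15, numpy 2.4.6, pandas 2.3.3 and matplotlib 3.10.9.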

Additional observations from a re-analysis of the deposited data

How the results depend on the processing

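No paired analysis was possible because the deposited table holds group means without single libraries, and for the same reason leaving out each replicate in turn was not run. Across 798 ratios of the 41 members kept, each recomputed under an alternative, 11 changed sign, 4 without the highest library of the gene and 7 with quantile normalization. Of these, 9 were of ratios within 2-fold, among them *Ccl22* (from 0.14 to -2.02 at d14 against d0, and from 0.52 to -1.64 against d3, without the highest library) and *Ccl25* (from -0.44 to 0.41 at d14 with quantile normalization). The others were past 2-fold, and without the highest library *Ackr4* went to 0.57 at d14 against d0, and *Ccl17* to -0.34 at d14 against d3. Apart from these last 2, 19 ratios moved by more than the estimated SD, 10 of them with a pseudocount of 1, 4 with quantile normalization and 5 without the highest library. Quantile normalization moved the median of all genes by 0.13 and 0.14 (log2) at d3 and d14 against d0. The calls of members at d3 were then 6 higher and 14 lower (30.0% of the calls higher, against 18.2%). Among all genes, the share called higher at d3 also rose with this normalization and the share called lower fell. The shift in the calls is therefore not read as a result about the members.

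At d3 against d0, a fold of more than 1.5 gave 9 members higher and a fold of more than 4 gave 2 higher and 10 lower, and an overall mean of at least 10, which left 20 members, gave 6 lower. At d14 against d0, a fold of more than 4 gave 6 higher and an overall mean of at least 10 gave 7 lower. Between the BDL days, a fold of more than 4 gave 7 higher and 5 lower, and an overall mean of at least 10 gave 5 higher and 3 lower. These counts at d3, at d14 and between the BDL days stand without a share of all genes. They are not read as a result about the members. The next alternatives were chosen after seeing the data. With the whole spread placed in the 2 groups compared, 4 of 8 members fell past 3 SE at d3 (2.97% of all genes). They were *Ackr1*, *Ccl19*, *Cxcl1* and *Cxcl12*. At d14, *Cxcl9*, *Cxcr5* and *Cxcr6* no longer fell past 3 SE. With 2 SE, 9 members were higher and 8 lower between the BDL days, again without a share of all genes. With the geometric mean used, 7 members could not overlap at d14 against d0 and 2 between the BDL days. The shares of all genes are given above with the strict separation of libraries. The causes were not tested. The estimated spread, the lack of single libraries and the low means of many members limit what these values can show.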
